A study of Mus musculus with 12 samples.

Results

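The cornified envelope genes encode the proteins that build the insoluble shell of the outermost skin cells, and the enzymes that cross-link and process them. They were taken as all genes with a symbol starting Sprr or Lce followed by a digit, together with 18 named envelope genes, which gave 42 of the 18193 genes measured. Of these, 9 were small proline-rich genes, 15 were late cornified envelope genes (11 of group 1 and 4 of group 3) and 30 lay in the epidermal differentiation complex on chromosome 3. One of the 9 small proline-rich genes, Sprr2j-ps, is a pseudogene.

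Back skin keratinocytes of mice with 4 transgenes were sorted by flow cytometry into 5 groups and profiled on 12 arrays. All groups carried K5-tTA with pTRE-H2B-GFP, an inducible nuclear label, as well as K14-CreER together with the reporter Rosa-tdTomato. The groups were BL LRC (n = 3), BL non-LRC (n = 3), SL LRC (n = 2), SL non-LRC (n = 2) and GL (n = 2). From what is known of the study, BL stands for the basal, SL for the spinous and GL for the granular layer, and LRC for label-retaining cell. The sorting gates are not given. Mice of all groups ate doxycycline food (1 g/kg, 2 weeks), which shuts off H2B-GFP so that dividing cells dilute it, received tamoxifen once at 75 mg/kg and were killed 1 week later in second telogen, an extended resting phase of the hair cycle. The keratin 5 and keratin 14 promoters are active in hair follicle keratinocytes as well as in interfollicular epidermis, so the drivers do not limit the reporters to interfollicular cells. The labels do not say whether samples are separate animals, so p-values measure the spread between these samples, and the number of arrays limits the precision.

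In mouse epidermis, basal keratinocytes leave the cell cycle and move outward, switching on envelope genes in sequence. Plakins and involucrin are laid down first at the cell membrane, loricrin and small proline-rich proteins are then cross-linked onto them by transglutaminases, and late cornified envelope proteins, filaggrin and its S100-fused relatives are incorporated last. AP-1 factors, which bind the letters TGANTCA, are known regulators of several of these genes, involucrin and loricrin among them.

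The promoters below were taken from RefSeq on GRCm38.p6. Most belong to members called between layers, while Krtdap, Lce1g and Lce3c were not called. Lce1g and Lce3c are shown so that their sequence can be compared with the other late cornified envelope genes. They show the 150 bases before the start site for the first 6 genes and the 80 bases before it for 5 late cornified envelope genes, 5′ to 3′ on the gene's strand. Capitals mark TGANTCA and TATAAA in the first 6, and ATAAAA, a variant of the TATA box, in the others.
Sprr1a, chr3:92485882-92486031, minus strand: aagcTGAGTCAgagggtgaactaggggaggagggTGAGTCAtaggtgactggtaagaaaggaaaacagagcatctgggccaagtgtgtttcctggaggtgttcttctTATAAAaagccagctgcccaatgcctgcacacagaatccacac
Ivl, chr3:92573736-92573885, minus strand: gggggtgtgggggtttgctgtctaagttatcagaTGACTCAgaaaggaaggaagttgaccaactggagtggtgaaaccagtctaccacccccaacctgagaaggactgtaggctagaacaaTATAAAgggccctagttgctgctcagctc
Lor, chr3:92083143-92083292, minus strand: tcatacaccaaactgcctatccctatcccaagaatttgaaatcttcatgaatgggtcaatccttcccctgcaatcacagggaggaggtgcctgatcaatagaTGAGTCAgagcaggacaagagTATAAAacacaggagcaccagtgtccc
Flg, chr3:93273396-93273545, plus strand: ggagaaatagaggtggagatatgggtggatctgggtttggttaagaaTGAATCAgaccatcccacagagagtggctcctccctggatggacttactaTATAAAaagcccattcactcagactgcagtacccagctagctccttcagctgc
Krtdap, chr7:30787755-30787904, plus strand: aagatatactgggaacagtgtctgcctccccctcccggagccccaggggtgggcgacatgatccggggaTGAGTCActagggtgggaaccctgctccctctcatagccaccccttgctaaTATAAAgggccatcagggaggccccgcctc
Tgm3, chr2:130012190-130012339, plus strand: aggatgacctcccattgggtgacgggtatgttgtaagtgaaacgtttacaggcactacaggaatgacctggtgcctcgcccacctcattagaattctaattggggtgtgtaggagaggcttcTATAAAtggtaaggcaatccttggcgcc
Lce1a2, chr3:92670316-92670395, minus strand: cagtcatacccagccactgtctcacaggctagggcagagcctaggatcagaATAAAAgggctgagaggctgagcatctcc
Lce1b, chr3:92656927-92657006, minus strand: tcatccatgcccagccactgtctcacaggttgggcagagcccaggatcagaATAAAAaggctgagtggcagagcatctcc
Lce1d, chr3:92687211-92687290, minus strand: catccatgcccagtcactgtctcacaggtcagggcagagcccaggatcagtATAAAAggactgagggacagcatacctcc
Lce1g, chr3:92752339-92752418, minus strand: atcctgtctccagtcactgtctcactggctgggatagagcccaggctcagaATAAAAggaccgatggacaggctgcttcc
Lce3c, chr3:92944406-92944485, plus strand: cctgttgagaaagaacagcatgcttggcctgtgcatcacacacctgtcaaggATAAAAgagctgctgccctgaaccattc

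Promoters were given for 35 of the 42 members, 36 promoters in all. TGANTCA, searched on both strands in the 250 bases before the start, was present in 36.1% of member promoters, against 6.75% of the 32851 promoters of the RefSeq table. It occurred in 7 of 8 small proline-rich genes and in 0 of 14 late cornified envelope genes. In Sprr1a it occurred at 146 and at 116 bases before the start, in Ivl at 116, in Flg at 103, in Krtdap at 81 and in Lor at 48. TATAAA on the gene's strand was in 47.2% of member promoters, against 7.59% of all promoters, and in 8 of 8 small proline-rich genes but in 2 of 14 late cornified envelope genes. ATAAAA, which was chosen after the sequences were viewed and overlaps TATAAA, was in 61.1% of member promoters and 10.2% of all promoters, and in 13 of 14 late cornified envelope genes. The other motifs searched on both strands occurred in fewer members: CCACACCC (8.33% of member promoters, 3.2% of all) was found in Casp14, Cnfn and Ivl, and AACCNGTT (2.78% of member promoters, 1.79% of all) in Rptn alone. The 80 bases before the start matched at 69.1% to 93.8% between 8 of the 10 group 1 genes with a promoter (28 pairs), and at 44.2% to 57.0% between those 8 and the 4 group 3 genes (32 pairs). The other 2, Lce1l and Lce1m, were left out of that range. They matched those 8 at 53.4% to 60.2%, each other at 52.8% and the group 3 genes at 48.3% to 56.3%. Within group 3, Lce3b, Lce3c and Lce3f matched each other at 67.1% to 85.2%, and Lce3a matched them at 47.1% to 49.5%. A match describes letters in this window and does not show that a factor binds.

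Signal is given as scaled array intensity, and a gene was called higher or lower at an adjusted p under 0.05 over all 18193 genes. Of the 42 members, 14 were above the background of the array on all 12 arrays, 25 on 1 to 11 and 3 on none (Lce1g, Sprr2i and Sprr2j-ps). Arrays fell into 2 sets by the added bacterial control BioB, at 467 to 524 units on 4 arrays (BL LRC 1, BL non-LRC 1 and both SL non-LRC) and at 2885 to 3931 on the other 8. In SL these sets coincide with the label groups. Signal of Kdm5d, Uty and Eif2s3y, all on the Y chromosome, was above background on 10 arrays and on neither BL LRC 1 nor BL non-LRC 1. The keratins used to check the labels did not order the fractions: Krt5, Krt14, Krt1 and Krt10 were called in none of the comparisons between layers, and Krt2, a late keratin, was at 9.43 to 83.1 units in GL, against 15.5 to 92.1 in BL. Summed signal of 6 basal markers was 92050 to 122720 in BL, 83501 to 95686 in SL and 69065 to 71042 in GL, and 4 of the 6 were lower in GL than in BL. The 2 GL samples also carried signal of other cell types. The 7 Langerhans and myeloid markers summed to 29178 to 62569 units in GL, against at most 8850.5 on any other array, and all 7 were higher in GL than in BL. In bulk samples fewer cells of a type and less RNA per cell cannot be told apart.

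**Figure D1:**
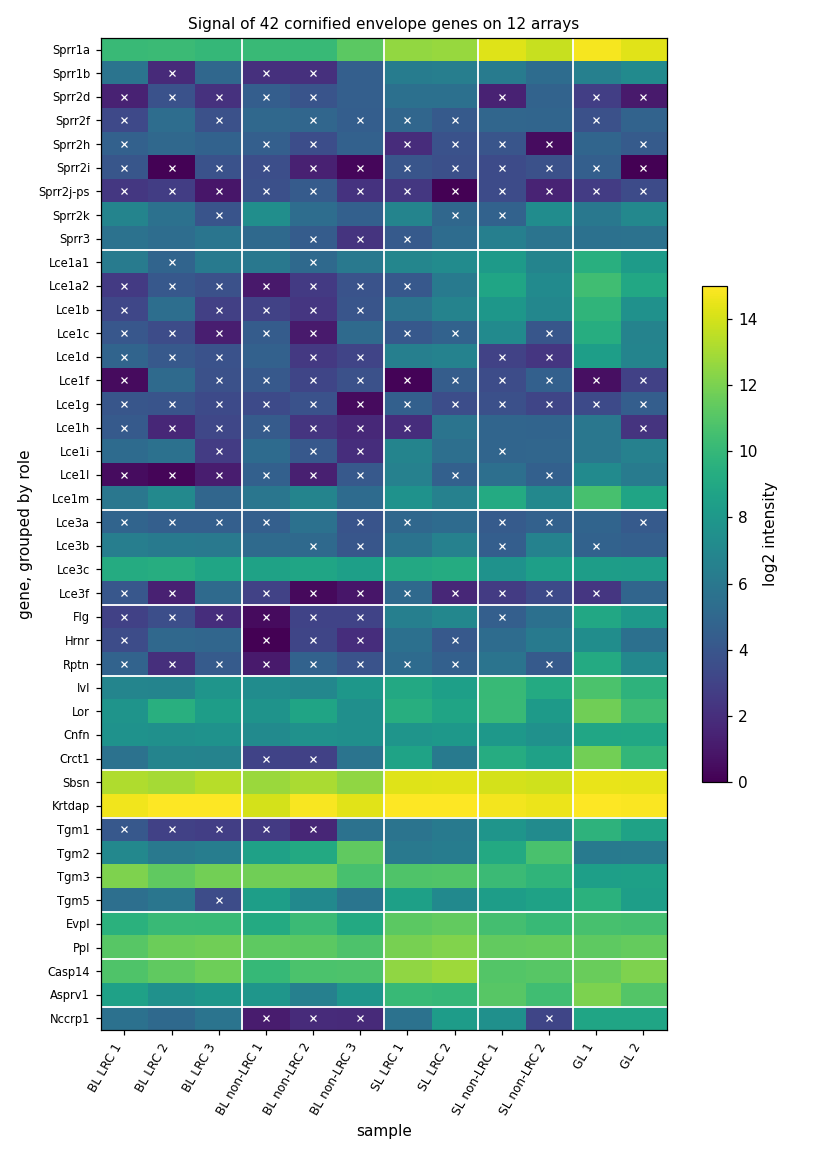
Log2 intensity (colour) of the 42 envelope genes (rows, grouped by role) on the 12 arrays (columns), with crosses where a value was at or below the array's background. Sbsn and Krtdap are bright on every array, most late cornified envelope genes are crossed out in BL, and Tgm3 darkens toward GL.

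Between GL and BL most changes were increases: 23 members were higher and 2 lower, while 8.66% of all genes were higher and 8.41% lower. The median log2 difference of the 42 members was 1.46, against -0.02 over all genes, and 26 members were at an unadjusted p under 0.05, as were 28.1% of all genes. With members below background on 1 side set at their bound, and those without a size left out, the median was 2.45 over 36 members. Tgm3 and Tgm2 were the members that fell. On chromosome 3, 15 of 30 members were higher and none lower, and on other chromosomes 8 of 12 were higher and 2 lower. A fitted difference against a group below background has no exact size, so such genes are given as at least N-fold, from the group's mean against the array background.

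Sprr1a, a small proline-rich precursor cross-linked into the envelope, changed in every comparison between layers. It read 1018, 1138 and 1191 units in BL LRC and 1118, 1145 and 2389 in BL non-LRC. It read 6107 and 6546 units in SL LRC, 13773 and 19638 in SL non-LRC, and 20219 and 28904 in GL. No array of one layer overlapped another layer. The log2 difference was 4.25 ± 0.24 (SE) for GL against BL (adjusted p = 5.6e-09), 3.0 ± 0.19 for SL against BL (adjusted p = 1.5e-07) and 1.25 ± 0.26 for GL against SL (adjusted p = 0.0053). Sprr1b, its close relative, was 92.0 and 144 units in GL, against 3.42 to 54.9 in BL, where 3 of 6 arrays were above background (3.30 ± 0.98, adjusted p = 0.027). The other 7 small proline-rich genes, 6 of them Sprr2 genes, passed the test in none of the comparisons between layers. They were dim, at most 173 units on any array. The Sprr2 genes are near-identical copies, so their values are uncertain between family members. The probe set kept for Sprr2h is of a kind marked as possibly cross-hybridising, as for 9 of the 42 members in all. The others of this kind are those of Lce1a1, Lce1d, Lce1h, Lce1i, Lce1m, Lce3b, Lce3c and Tgm2.

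**Figure D2:**
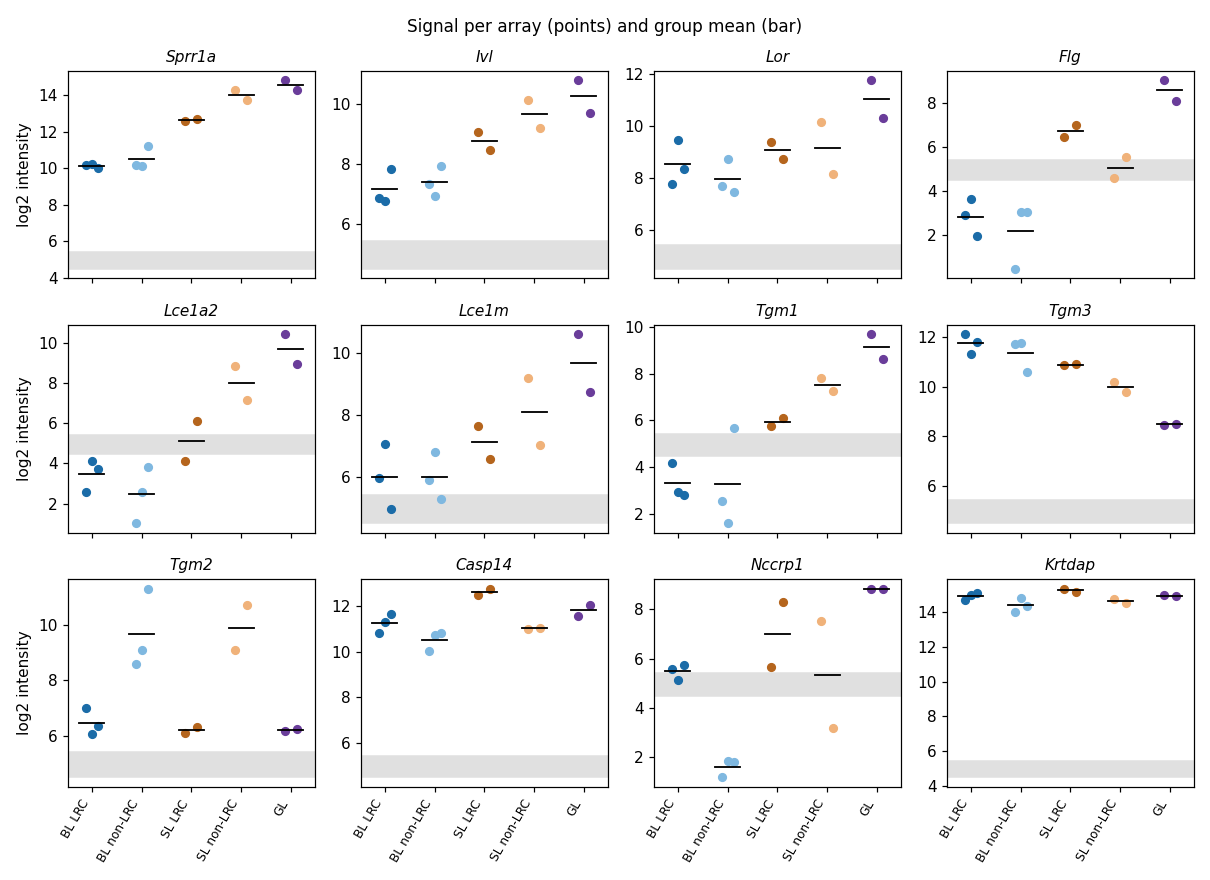
Log2 intensity per array (points) and group mean (bars) for 12 members, with the range of array backgrounds in grey. Sprr1a, Ivl and Tgm1 step up through BL, SL and GL, Tgm3 steps down, and Tgm2 sits high in both non-LRC groups.

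Among late cornified envelope genes the groups 1 and 3 differed in count. In group 1, 7 of 11 were higher in GL than in BL (Lce1a1, Lce1a2, Lce1b, Lce1c, Lce1d, Lce1l and Lce1m), and in group 3, 0 of 4 were called. Lce1a2 read 2.03 to 17.5 units in BL, where no array was above background, 17.4 and 69.2 in SL LRC, 461 and 144 in SL non-LRC, and 1368 and 501 in GL. It was at least 28.7-fold higher in GL than in BL (adjusted p = 2.9e-05), and at least 3.28-fold higher in SL than in BL (adjusted p = 0.0039). Lce1m was above background on all 6 BL arrays, at 30.8 to 134 units, and read 1566 and 430.3 in GL (3.70 ± 0.68, adjusted p = 9.0e-04). Lce3c, the one group 3 gene above background on every array, was at 311 and 323 units in GL and 361 to 661 in BL (a log2 difference of -0.58 ± 0.27, adjusted p = 0.18). Lce3a, Lce3b and Lce3f were at 84.1 units or less in GL and BL. The difference in count between groups 1 and 3 was not tested. The probe sets kept for Lce1a1, Lce1d, Lce1h, Lce1i, Lce1m, Lce3b and Lce3c are marked as possibly cross-hybridising. Their values are therefore uncertain between family members.

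The S100-fused proteins Flg, Hrnr and Rptn, large late proteins that aggregate keratin or reinforce the envelope, were all higher in GL than in BL. Flg was 1.37 to 12.3 units in BL, where no array passed background, 87.5 and 125 in SL LRC, 23.6 and 46.7 in SL non-LRC, and 517 and 271 in GL. That is at least 13.0-fold higher in GL than in BL (adjusted p = 7.5e-05) and at least 2.05-fold higher in SL than in BL (adjusted p = 0.0053). Rptn was 567 and 127 units in GL, against 2.14 to 27.5 in BL, or at least 9.30-fold higher (adjusted p = 0.0042). Its other 2 probe sets were not called (0.03 and -0.58), and the mean over probe sets gave 1.35 (adjusted p = 0.37). Hrnr was 162 and 46.9 units in GL, against 1.00 to 33.6 in BL, where 2 of 6 arrays were above background (3.34 ± 0.93, adjusted p = 0.018). All 3 were lower on GL 2 than on GL 1.

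Ivl, which encodes involucrin, an early scaffold of the envelope, and Lor, which encodes loricrin, its main protein, were both higher in GL than in BL. Ivl read 109 to 244 units in BL, 352 to 1109.9 in SL and 1754 and 829.9 in GL, with no overlap between GL and BL (2.97 ± 0.40, adjusted p = 4.8e-05) or between SL and BL (1.94 ± 0.31, adjusted p = 0.0011). Lor was 177 to 710.2 units in BL, 286 to 1135 in SL and 3476 and 1255 in GL. It passed the test for GL against BL (2.78 ± 0.52, adjusted p = 0.0011) and GL against SL (1.92 ± 0.56, adjusted p = 0.042). Crct1, a cysteine-rich gene of the complex, was 7.33 to 107 units in BL, where 4 of 6 arrays were above background, 71.8 to 612 in SL and 3563 and 987 in GL (5.76 ± 0.77, adjusted p = 4.5e-05 for GL against BL). Cnfn, or cornifelin, was 472 and 496 units in GL, against 142 to 197 in BL (1.42 ± 0.31, adjusted p = 0.0033).

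Transglutaminases, the enzymes that cross-link envelope proteins, did not move together. Tgm1, the membrane-anchored enzyme of the epidermis, was 3.0 to 51.4 units in BL, where 1 of 6 arrays was above background, 54.0 to 226 in SL and 817 and 394 in GL (5.87 ± 0.88, adjusted p = 1.5e-04 for GL against BL). Tgm5 was 766 and 342 units in GL, against 11.1 to 341 in BL, where 5 of 6 arrays were above background (2.96 ± 0.68, adjusted p = 0.0055). Tgm3, a soluble enzyme also known from the hair follicle, ran the other way: 1566 to 4444 units in BL, 891 to 1948 in SL and 354 and 365 in GL. The log2 difference for Tgm3 was -3.07 ± 0.27 for GL against BL (adjusted p = 5.3e-07), -1.96 ± 0.29 for GL against SL (adjusted p = 3.5e-04) and -1.11 ± 0.21 for SL against BL (adjusted p = 0.0041). A second Tgm3 probe set also fell between layers, by 2.46 for GL against BL. Tgm2, the widely expressed tissue transglutaminase, was 72.4 and 75.6 units in GL, against 67.3 to 2548 in BL, with overlap (-1.86 ± 0.58, adjusted p = 0.035), and lost the call when the replicate number was blocked (adjusted p = 0.090). The other 5 Tgm2 probe sets were not called, at -1.25 to 1.40, and the mean over probe sets gave -0.61 (adjusted p = 0.62).

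Sbsn, which encodes suprabasin, was 5845 to 10676 units in BL, 15556 to 20415 in SL and 23150.0 and 22374 in GL (1.49 ± 0.14, adjusted p = 1.5e-06 for GL against BL). Krtdap, which marks differentiating keratinocytes, was already bright in every fraction, at 31152 and 31965 units in GL and 16629 to 35459 in BL (0.28 ± 0.17, adjusted p = 0.30). The plakin Evpl was higher in GL than in BL (0.85 ± 0.27, adjusted p = 0.039). It lost the call under the replicate block (adjusted p = 0.064), median centring (0.068) and the array-set term (0.089), and on the high-BioB arrays alone (0.12). It also lost the call without BL LRC 1, BL non-LRC 1 or BL non-LRC 3 (adjusted p = 0.060 to 0.069). Ppl, its partner, read 2508 and 2809 units in GL, against 1824 to 3474 in BL (0.07 ± 0.18, adjusted p = 0.86). Asprv1, the protease that cuts profilaggrin, was 93.2 to 378 units in BL, 1020.3 to 2182 in SL and 4181 and 2047 in GL (3.78 ± 0.37, adjusted p = 1.9e-06 for GL against BL). Casp14, which takes part in filaggrin breakdown, was 3063 and 4325 units in GL, against 1055 to 3298 in BL, with overlap (0.92 ± 0.23, adjusted p = 0.010), and a second, dim Casp14 probe set gave -1.59 ± 1.03, so that the mean over both was -0.34 (adjusted p = 0.68). Nccrp1, a gene of differentiated squamous epithelia, was 450.5 and 459.6 units in GL, against 2.24 to 53.9 in BL, where 3 of 6 arrays were above background (5.28 ± 0.94, adjusted p = 7.2e-04).

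**Figure D3:**
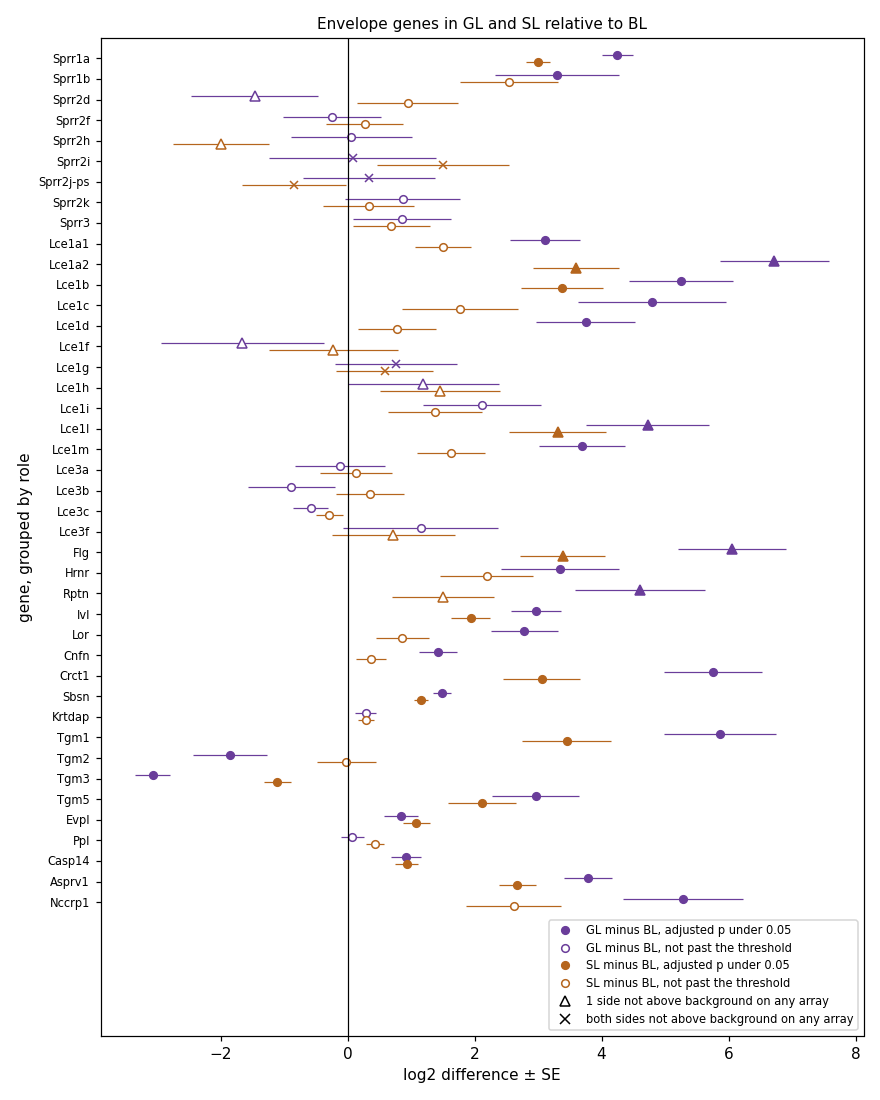
Log2 difference ± SE of GL minus BL (purple) and SL minus BL (orange) for the 42 members, filled where the adjusted p was under 0.05, as triangles or crosses where 1 or both sides were below background on all arrays. GL minus BL exceeds SL minus BL for most group 1 late cornified envelope genes, and Tgm3 lies left of 0 in both.

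The 2 GL arrays did not read alike in the members, so the size of the GL against BL differences rested in part on GL 1. Across the 31 members above background on both GL arrays, GL 1 exceeded GL 2 for 21, with a median log2 gap of 0.92, against 0.01 over all genes. The SL non-LRC arrays differed as well. Across the 25 members above background on both, SL non-LRC 1 exceeded SL non-LRC 2 for 19. The median log2 gap there was 0.41, against -0.04 over all genes. Without GL 1, GL is 1 array, and calls fell over all genes as well as in the members. Of the members that lost the call, the difference was then smaller for Hrnr (2.45), Lce1c (3.46), Lce1d (2.93), Lce1l (4.27), Lce1m (2.77), Lor (2.05), Rptn (3.52) and Tgm5 (2.38). It moved little for Evpl (0.80) and Tgm2 (-1.825) and was larger for Sprr1b (3.62). GL also differed from BL in markers of other cell types. Melanocyte markers summed to 2144 to 2963.1 units in GL, against 507.78 to 746.28 in BL (3 of 7 higher). Stress keratinocyte markers summed to 46291 to 47343 units in GL, against 3110.7 to 5728.7 in BL (4 of 7 higher). T cell markers overlapped, at 7350 to 23910 units in GL against 3806.2 to 7806.4 in BL, with 3 of 5 higher. Inner root sheath markers summed to 6159.9 to 8473 units in GL, against 577.87 to 988.18 in BL, with 7 of 10 higher. The part of these cells in the envelope results was not tested.

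Between SL and BL, 13 members were higher and 1 was lower, while 2.83% of all genes were higher and 2.2% lower. The median over the members was 1.12, against 0.00 over all genes, and 22 were at an unadjusted p under 0.05, as were 15.8% of all genes. All 13 were also higher in GL than in BL, and the 2 comparisons share the BL samples. A further 10 members were higher in GL than in BL without a call in SL against BL, and whether their 2 differences differ was not tested. The 13 were Asprv1, Casp14, Crct1, Evpl, Flg, Ivl, Lce1a2, Lce1b, Lce1l, Sbsn, Sprr1a, Tgm1 and Tgm5, with Tgm3 lower. With LRCs alone, Crct1, Ivl, Lce1a2, Lce1b, Tgm1, Tgm3 and Tgm5 lost the call (adjusted p = 0.056 to 0.70). Their differences were 1.07 for Crct1, 1.62 for Ivl, 2.42 for Lce1b, -0.85 for Tgm3 and 2.87 for Tgm5. Those of Lce1a2 and Tgm1 were positive, with no BL LRC array above background. With non-LRCs alone, Casp14, Evpl, Flg, Lce1l and Tgm5 lost the call (adjusted p = 0.18 to 0.62). Their differences were 0.50 for Casp14, 0.81 for Evpl and 1.37 for Tgm5. Those of Flg and Lce1l were positive, with no BL non-LRC array above background. Over all genes, 1.41% were higher and 1.41% lower with LRCs alone, and 1.17% and 0.39% with non-LRCs alone. Asprv1, Sbsn and Sprr1a kept the call in both. Lce1b, for example, was 55.0 to 246 units in SL, against 5.14 to 42.9 in BL, where 1 of 6 arrays was above background (3.38 ± 0.65, adjusted p = 0.0041). Tgm5 lost the call under the replicate block (adjusted p = 0.051) and when SL LRC 1, either array of SL non-LRC, the third BL LRC array or the second of BL non-LRC was left out (adjusted p = 0.055 to 0.17). Lce1l lost it without SL LRC 1 (adjusted p = 0.11) or SL non-LRC 1 (adjusted p = 0.091), Crct1 without SL LRC 1 (adjusted p = 0.052), and Casp14 when its probe sets were averaged (adjusted p = 0.30). Stress keratinocyte markers summed to 8224.3 to 25802 units in SL, against 3110.7 to 5728.7 in BL, with 3 of 7 higher. Inner root sheath markers summed to 1478.9 to 2380.8 units in SL, against 577.87 to 988.18 in BL, with 5 of 10 higher. Upper follicle and sebaceous markers overlapped, at 52254 to 122680 units in SL against 22881 to 91507 in BL, with 5 of 12 higher. The part of these cells in the SL results was not tested.

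Between GL and SL, 4 members were higher (Lce1a2, Lce1d, Lor and Sprr1a) and Tgm3 was lower, while 4.39% of all genes were higher and 3.91% lower. The median over the members was 0.81, against -0.03 over all genes, and 20 were at an unadjusted p under 0.05, as were 20.8% of all genes. Lce1d was 340.1 and 109 units in GL, 89.6 and 101 in SL LRC and 5.14 and 7.76 in SL non-LRC (2.97 ± 0.83, adjusted p = 0.036). With the replicate block 8 members were called, while 4.7% of all genes were higher and 4.34% lower. Without GL 1, the differences of the 4 higher members were smaller, at 2.40 for Lce1a2, 2.15 for Lce1d, 1.19 for Lor and 0.99 for Sprr1a. Each of the 4 higher calls was lost when GL was set against the LRCs or the non-LRCs of SL alone. Against SL non-LRC alone Lce1a2 gave 1.69 (adjusted p = 0.44), Lor 1.88 (adjusted p = 0.11) and Sprr1a 0.56 (adjusted p = 0.35), and against SL LRC alone Lce1d gave 1.01 (adjusted p = 0.63) and Lor 1.97 (adjusted p = 0.068). With the array set as a term Lce1a2 gave 2.25 (adjusted p = 0.19) and Lor 1.54 (adjusted p = 0.16).

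Mean signal ran in the order BL, SL, GL from low to high in 26 of 42 members, and 21 of those 26 were called higher in GL than in BL. How many of all genes ran in that order was not counted, and the order itself places GL above BL. Sprr1a and Lce1a2 were higher in all 3 layer comparisons and Tgm3 was lower in all 3. The GL against SL call of Lce1a2 (adjusted p = 0.043) was also lost under quantile normalization (adjusted p = 0.051) and in 5 of the 12 fits that left out an array (adjusted p = 0.053 to 0.39). Along chromosome 3, called members stood beside uncalled ones: the Sprr2 genes between Lor and Sprr1b, Sprr3 between Sprr1b and Sprr1a, Lce1f, Lce1g, Lce1h and Lce1i between Lce1d and Lce1l, and the 4 Lce3 genes between Lce1l and Crct1 were not called for GL against BL. Many of these were dim: Lce1g, Sprr2i and Sprr2j-ps were above background on no array, Lce1f on 1, Lce3f on 2 and Lce3a on 3. Lce3c was above it on all 12, and Sprr2k and Sprr3 on 9. A second Lce1f probe set was called (4.88 ± 0.96, adjusted p = 0.0018).

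**Figure D4:**
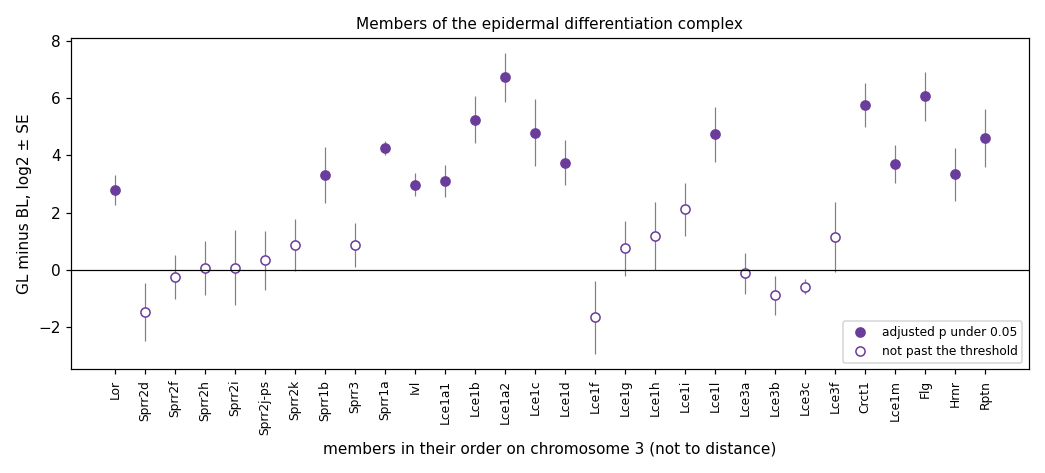
GL minus BL log2 difference ± SE for the 30 members on chromosome 3, in gene order and not to distance, filled where the adjusted p was under 0.05. The Sprr2 genes, Lce1f to Lce1i and the Lce3 genes form 3 runs of open points between filled points, and Sprr3 is a single open point. Several open points belong to probe sets above background on few or no arrays.

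LRCs and non-LRCs of the same layer differed in few envelope genes. In BL, Nccrp1 was higher and Tgm2 lower in LRCs, while 0.308% of all genes were higher and 1.23% lower. The median over the 42 members was 0.46, against 0.05 over all genes, and 10 members were at an unadjusted p under 0.05, as were 11.1% of all genes. In SL, Casp14 and Lce1d were higher and Tgm2 and Sprr1a lower in LRCs, while 1.49% of all genes were higher and 2.7% lower. There the median over the members was 0.03, against 0.00 over all genes, and 10 members were at an unadjusted p under 0.05, as were 16.9% of all genes.

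Tgm2 was the one member called in both layers. In BL it read 128, 67.3 and 81.1 units in LRCs, against 381, 544 and 2548 in non-LRCs (-3.19 ± 0.58, adjusted p = 0.0074). In SL it read 68.2 and 78.8 units in LRCs, against 543 and 1674 in non-LRCs (-3.70 ± 0.71, adjusted p = 0.0062), and leaving out SL LRC 1 or SL non-LRC 2 ended that call (adjusted p = 0.059 and 0.13), as did averaging its probe sets (adjusted p = 0.089). The groups did not overlap in either layer. Of 6 Tgm2 probe sets, 5 had a difference below 0 in BL and 3 were called, and in SL 6 were below 0 and 2 were called. Summed signal of 12 upper follicle and sebaceous markers moved the same way, at 22881 to 26277 units in BL LRC against 54803 to 91507 in BL non-LRC, and at 52254 to 52784 in SL LRC against 112160 to 122680 in SL non-LRC. Of these 12 markers 10 were lower in LRCs in BL and 9 in SL, and their part in the Tgm2 result was not tested.

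Nccrp1 read 47.8, 35.3 and 53.9 units in BL LRC and 2.24, 3.57 and 3.50 in BL non-LRC, where no array was above background, so it was at least 1.62-fold higher (adjusted p = 0.0498). With the replicate number blocked its adjusted p was 0.061. The Nccrp1 call was lost in 9 of the 12 fits that left out 1 array, among them each fit without a BL array (adjusted p = 0.082 to 0.18). Casp14 (0.74 ± 0.23) had an adjusted p of 0.17 without the block and 0.020 with it. Tgm5 (-2.16 ± 0.68) had an adjusted p of 0.17 without the block and 0.022 with it. Tgm5 was 45.5, 59.3 and 11.1 units in BL LRC, against 341, 138 and 56.6 in BL non-LRC.

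Casp14 was 5863 and 7047 units in SL LRC, against 2059 and 2157 in SL non-LRC (1.61 ± 0.28, adjusted p = 0.0036). It was 0.91 and not called with the array set as a term (adjusted p = 0.10). Lce1d was 89.6 and 101 units in SL LRC, against 7.76 and 5.14 in SL non-LRC, below background on both arrays, or at least 3.47-fold higher (adjusted p = 0.028). Sprr1a was lower, at 6107 and 6546 units in SL LRC against 19638 and 13773 in SL non-LRC (-1.38 ± 0.30, adjusted p = 0.012). Leaving out any one of the 4 SL arrays ended the Lce1d call (adjusted p = 0.077 to 0.18), and leaving out SL LRC 1, SL LRC 2 or SL non-LRC 1 ended that of Sprr1a (adjusted p = 0.067 to 0.13). Marker sums of other cells differed as well. Stress keratinocyte markers summed to 8224.3 to 8961.6 units in SL LRC, against 21716 to 25802 in SL non-LRC (2 of 7 lower), Langerhans and myeloid markers to 1114.4 to 1713.6 against 3441.2 to 8850.5 (3 of 7 lower) and melanocyte markers to 623.55 to 652.65 against 1187.3 to 1281.1 (2 of 7 lower). Spinous markers, a list that holds the member Sbsn, summed to 106420 to 113230 units in SL LRC, against 67865 to 76705 in SL non-LRC (3 of 5 higher). Their part in the Sprr1a, Casp14 and Lce1d results was not tested. Because all SL LRC arrays are of one BioB set and all SL non-LRC arrays of the other, label and array set cannot be told apart within SL. Over the 42 members, 0 differed in label effect between layers, as did 0% of all genes. The smallest adjusted p was 0.53, with 10 members and 7.1% of all genes at an unadjusted p under 0.05.

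**Figure D5:**
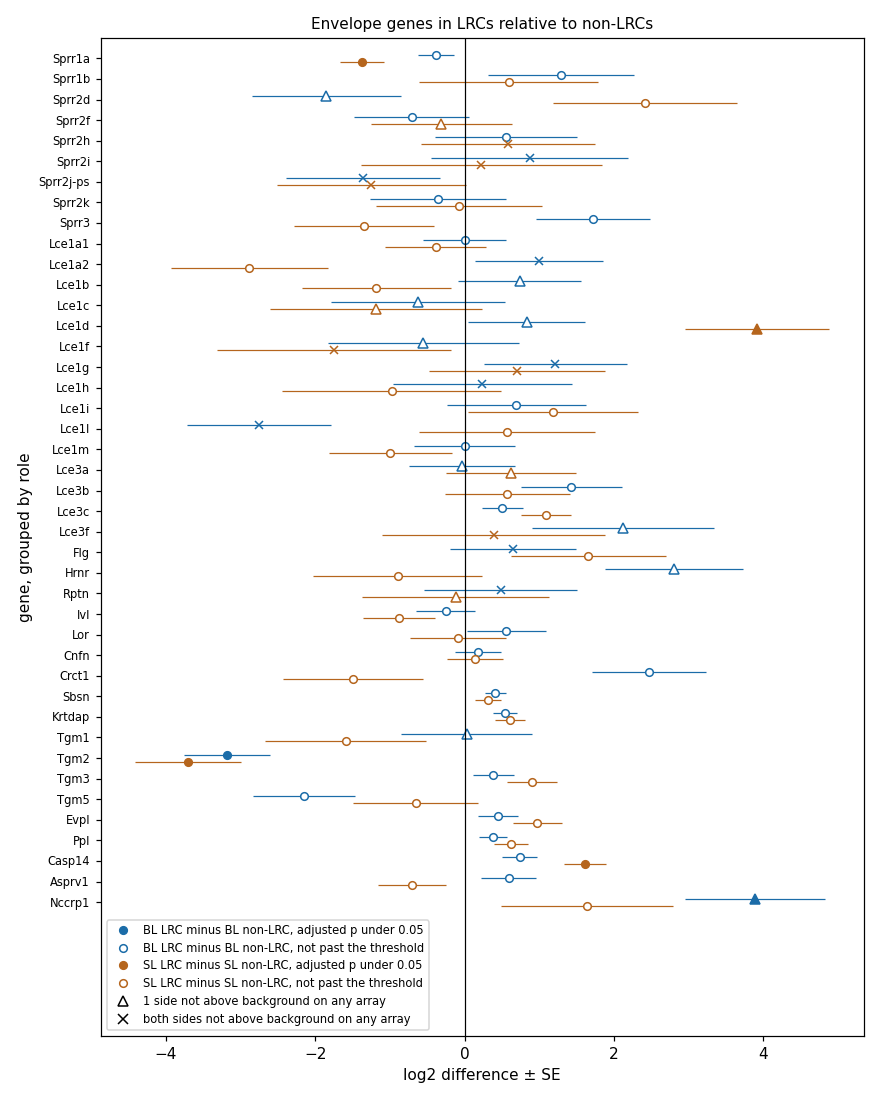
Log2 difference ± SE of LRC minus non-LRC in BL (blue) and SL (orange) for the 42 members, filled where the adjusted p was under 0.05, with triangles or crosses where 1 or both sides were below background on all arrays. Tgm2 lies left of 0 in both layers, Nccrp1 is filled in BL alone, and Casp14, Lce1d and Sprr1a in SL alone.

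Known regulators of envelope genes and further cornification genes were read beside the members. Of 23 regulators measured, 8 were higher and 1 lower in SL than in BL, and 9 higher and 3 lower in GL than in BL. Over all genes those shares were 2.83% and 2.2% for SL against BL, and 8.66% and 8.41% for GL against BL. The median over the regulators was 0.29 for SL against BL and 0.33 for GL against BL. The smallest p values for GL against BL belonged to Grhl1 (1.65 ± 0.17, adjusted p = 2.8e-06), a grainyhead factor, to Jun (1.09 ± 0.15, adjusted p = 6.6e-05), an AP-1 subunit, and to Ovol1 (1.51 ± 0.22, adjusted p = 9.0e-05). Gata3 was lower in GL (-1.05 ± 0.15, adjusted p = 9.4e-05). Of 34 other cornification genes measured, 18 were higher and 0 lower in GL than in BL, led by Klk7 (4.83 ± 0.25, adjusted p = 2.4e-09) and Klk5 (3.53 ± 0.25, adjusted p = 6.0e-08), proteases of the outer layer, and by Cst6 (3.49 ± 0.26, adjusted p = 7.8e-08), a cystatin protease inhibitor. The median over these 34 genes was 0.93 for GL against BL. Their list shares Tchh and Padi3 with the inner root sheath markers, and Krt1, Krt10, Krt77 and Dsc1 with the spinous markers. In SL LRCs Krt10 was higher than in SL non-LRCs (0.56, adjusted p = 0.026), as it was in BL (0.52, adjusted p = 0.021). Krt1 was higher in LRCs in SL (1.115, adjusted p = 0.0037) and not called in BL (0.58, adjusted p = 0.10).

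Of the 35 members with a promoter, TGANTCA was found in 13, of which 7 were higher in GL than in BL, and not found in 22, of which 13 were higher. These counts carry no test.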

How the data were processed

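Sorted keratinocyte RNA from 12 samples was amplified and hybridised to Affymetrix mouse arrays, per the labels' protocols (RNeasy micro extraction, 5 ng of RNA through NuGEN Ovation Pico WTA and Encore Biotin). The authors' deposited values are intensity values. As recomputed here, they are linear, and each array's mean after trimming 2% was 499.9, with a minimum of 1 and a maximum of 71928.6. Which program summarised the probes is not stated in the labels.

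Log2 was taken with nothing added. For each of 18193 genes the probe set of highest mean log2 among those annotated to that gene alone was kept. Background was the 95th percentile of 27 bacterial probe sets per array (22.4 to 42.6 units). Differences were fitted with limma 3.58.1 (R 4.3.3), 5 group means over 12 arrays with trended empirical Bayes moderation, and Benjamini-Hochberg adjusted p-values over all genes at 0.05. The fit was tested on simulated data. Figures used Python 3.11.15 and matplotlib 3.10.9. Promoters and gene order come from RefSeq tables.

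Samples with the same replicate number deviated together in BL (r = 0.32, 0.20 and 0.18 over 10371 genes). BL LRC 1 and BL non-LRC 1 also share the low BioB set and the lack of Y chromosome signal. These values therefore do not show that a shared number means a shared animal, and no label says what the numbers share. Of 2 SL samples a group the value was 0.04. Per-sample values are given for members called in a comparison and for Ivl, Lor, Flg, Tgm1, Tgm3, Casp14, Sprr1a, Sprr1b, Nccrp1, Sbsn and Krtdap, and up to 6 genes of smallest p per comparison are named from the other lists. The members and lists were chosen with earlier results of these data known. Alternatives changed the scaling, the log offset, the filter on dim genes, the choice of probe set, array set, the replicate block and single arrays.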

Additional observations from a re-analysis of the deposited data

Results flagged for a closer look

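Signal was also present in probe sets outside the measured 42. A probe set shared by Sprr2a1 and Sprr2a2 was above background on 11 of 12 arrays, and one shared by Sprr2a1, Sprr2a2 and Sprr2a3 on 12, and both were brightest on SL LRC 2 (2010.1 and 2275.6 units). A second Sprr2a1 and Sprr2a2 probe set passed background on 4 arrays. These were left out since each matches several genes. A second probe set of Lce1f, not the one kept, was above background on 2 arrays, both GL (131 and 42.2 units), and was higher in GL than in BL (4.88 ± 0.96, adjusted p = 0.0018 in the same limma model over probe sets).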

How the results depend on the processing

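Of 50 calls over the 42 members and 5 comparisons, 27 held in all 12 fits that left out 1 array, and 23 were lost in at least 1. Leaving out single arrays gave 1 to 2 calls for BL LRC against BL non-LRC, 1 to 6 for SL LRC against SL non-LRC, 12 to 16 for SL against BL, 1 to 8 for GL against SL and 14 to 26 for GL against BL. Leaving out an array of SL or GL leaves 1 array in that group, and calls over all genes in its comparisons fell as well. GL against SL gave 1 without GL 1, 2 without SL non-LRC 2, 3 without BL LRC 3, SL LRC 1, SL LRC 2 or GL 2, and 8 without BL non-LRC 3. SL LRC against SL non-LRC gave 1 without SL LRC 1 and 2 without SL LRC 2 or either one of the SL non-LRC arrays. BL LRC against BL non-LRC gave 1 without BL LRC 1, BL LRC 2, BL LRC 3, BL non-LRC 1, SL LRC 2, GL 1 or GL 2. Without BL non-LRC 2 or BL non-LRC 3 the count stayed at 2, with another member called in the place of Nccrp1. Quantile normalization, median centring, log2(value + 16), averaging a gene's probe sets and the high-BioB arrays alone each gave 1 call in BL in place of 2, with Nccrp1 not called. The high-BioB alternative was chosen after the data were seen. SL against BL gave 7 calls with LRCs alone, 9 with non-LRCs alone and 5 with LRCs on the high-BioB arrays, in place of 14. The shares of all genes higher and lower were, in that order, 1.41% and 1.41%, 1.17% and 0.39%, and 0.879% and 0.671%. In the main fit they were 2.83% and 2.2%. GL against SL gave 3 calls against SL non-LRC alone, 10 with log2(value + 16) and 8 with the replicate block, in place of 5. There the shares of all genes were 1.98% and 2.83%, 5.63% and 3.91%, and 4.7% and 4.34%. In the main fit they were 4.39% and 3.91%. Averaging probe sets ended 6 of the 50 calls and turned the sign of 1: Nccrp1 in BL (adjusted p = 0.060), Tgm2 in SL (-2.66, adjusted p = 0.089), Casp14 for SL against BL (0.71, adjusted p = 0.30), Lor for GL against SL (1.60, adjusted p = 0.13), Rptn (1.35, adjusted p = 0.37) and Tgm2 (-0.61, adjusted p = 0.62) for GL against BL, and, with its sign turned, Casp14 for GL against BL (-0.34, adjusted p = 0.68). Among the 50 calls, 4 were lost under the replicate block, 5 with the array set as a term, 2 under quantile normalization, 3 under median centring and 0 under the filter on dim genes. Median centring took the median of all genes from 0.05 to -0.19 in BL and from -0.03 to -0.17 for GL against SL. It moved the lower share of all calls from 79.9% to 95.1% in BL and from 64.5% to 81.8% in SL. That share went from 43.7% to 30.1% for SL against BL and from 47.1% to 59.99% for GL against SL. The high-BioB alternative could not be fitted for SL LRC against SL non-LRC, since every SL non-LRC array is of the low set. The replicate block added calls for Lce1a1 (adjusted p = 0.026) and Sprr1b (adjusted p = 0.025) in SL against BL, and for Asprv1 (adjusted p = 0.022), Crct1 (adjusted p = 0.020) and Ivl (adjusted p = 0.046) in GL against SL, and beside those named above it changed no other member's call. Values near background limit the dim members.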
